A study of Mus musculus with 18 samples.

Results

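The genes described here are Hnf4a, Apob, Aqp5, Dynap, Qrfp and Gprc5a, 6 of the 55416 genes counted, brought together as gut and liver type genes of the lung tumour model. They were chosen for high read numbers in that model, so their levels there describe the choice and were not tested. All 6 were among the 17174 genes that passed the filter on low counts, but they passed through the lung libraries, or for Dynap and Gprc5a also the breast libraries, where they are high. The name fits Hnf4a and Apob best. Aqp5, Dynap, Qrfp and Gprc5a are not mainly known as gut or liver genes, and Gprc5a was higher in the breast than in the lung libraries.

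The tissue was the peritumoral area of mouse brains carrying tumours of 1 of 3 injected cell lines, with 6 brains per line. The lung cancer model was the line 482N1 (replicates 7 to 11 and 13), the melanoma model B16-F10-BrM4 (replicates 1 to 6) and the breast cancer model EO771-BrM3 (replicates 14 to 19). All mice were labelled as wild type and received 40000 cells, and brains were taken at day 10. Each model is 1 cell line, so that model and line cannot be told apart, and no tumour-free brain is part of the comparison. Neuron markers summed to between 1913 and 4496 CPM in every library, so the brain label fits. Melanocyte markers summed to between 3645 and 22791 CPM in the melanoma libraries and to at most 8.26 CPM elsewhere. Libraries held 7366250 to 14533877 counts. Melanoma 3, breast 18 and breast 19 stood apart, with log2 CPM rising by 0.417 to 0.461 per doubling of exon length against 0.544 to 0.822 in the other 15, and results are also given without them where they matter.

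HNF4A is a nuclear receptor that drives transcription in hepatocytes, enterocytes and kidney tubule, and works in a network with FOXA and GATA factors. One of its best known targets is the gene of apolipoprotein B, the structural protein on which the liver and the intestine build lipoprotein particles. AQP5 is the water channel of secretory glands and of the flat cells of the alveolus, GPRC5A is an orphan receptor induced by retinoic acid in epithelia, QRFP is the precursor of an RFamide peptide made in the hypothalamus, and DYNAP is a membrane protein that binds dynactin.

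The stretches before the transcription start are shown for the genes of this set that RefSeq's promoter table (GRCm38.p6) holds, because HNF4 recognition letters lie in some of them. Each line gives the 250 bases before the start, 5′ to 3′ on the strand of the gene, and capitals mark the motif letters found. The table held 4 of the 6 genes. Hnf4a has 2 starts there, and neither window, chr2:163506607-163506856 or chr2:163546905-163547154 (+), held any of the motifs searched. Shown are Apob at chr12:7977427-7977676 (+), Qrfp at chr2:31810581-31810830 (-) and, as a window without a match, Aqp5 at chr15:99590778-99591027 (+).
Apob: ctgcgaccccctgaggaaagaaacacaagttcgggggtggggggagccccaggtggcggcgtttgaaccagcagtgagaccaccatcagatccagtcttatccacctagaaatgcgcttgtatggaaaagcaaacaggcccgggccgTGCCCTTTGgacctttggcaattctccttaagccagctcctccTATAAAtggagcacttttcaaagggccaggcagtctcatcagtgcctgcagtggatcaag
Qrfp: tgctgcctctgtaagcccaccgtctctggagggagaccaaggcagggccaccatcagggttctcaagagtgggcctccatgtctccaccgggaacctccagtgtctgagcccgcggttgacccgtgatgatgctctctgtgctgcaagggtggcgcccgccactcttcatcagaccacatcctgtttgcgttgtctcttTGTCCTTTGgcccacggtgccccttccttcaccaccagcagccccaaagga
Aqp5: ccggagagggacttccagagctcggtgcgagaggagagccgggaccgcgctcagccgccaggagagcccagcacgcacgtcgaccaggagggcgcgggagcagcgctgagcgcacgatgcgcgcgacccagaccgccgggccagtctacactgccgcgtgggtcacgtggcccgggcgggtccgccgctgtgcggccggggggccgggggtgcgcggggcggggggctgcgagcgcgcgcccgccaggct

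The letters searched, on both strands, were CAAAGNNCA for HNF4, TGTTTAC for forkhead factors and TATAAA for the TATA box, and they were chosen after the windows had been read. In Apob the HNF4 letters lay on the opposite strand from 103 to 95 bases before the start and the TATA letters from 60 to 55. In Qrfp the HNF4 letters lay on the opposite strand from 51 to 43 bases before the start. Of 32851 promoter windows of that length, 5.49% held the HNF4 letters, 3.17% the forkhead letters and 12.4% the TATA letters. No motif overlapped another. The Aqp5 window was 78.4% G and C. A match describes these letters and is not a measured site.

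Hnf4a (ENSMUSG00000017950.17) was read at 22.2 ± 8.53 CPM (SD, n = 6) in the lung libraries. By replicate, 7 to 11 and 13, it stood at 24.4, 35.3, 28.0, 15.6, 16.4 and 13.5 CPM, from 165 to 455 reads each. The 3 highest were replicates 7, 8 and 9. The melanoma libraries held no read, which puts the lung libraries at least 546.6-fold higher, taking 3 counts in all 6 as the floor (the 95% counting interval of the ratio starts at 444). The breast libraries held 3 reads, 1 each in replicates 16, 17 and 18. The ratio of reads, here and below relative to the scaled library sizes of each model, was 499.5 (95% counting interval 171 to 2425). Counting intervals, here and below, leave out the spread between brains. Lung did not overlap with either model.

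Apob (ENSMUSG00000020609.15), whose protein carries the lipid of newly made lipoproteins, was read at 72.1 ± 21.5 CPM (SD, n = 6) in lung. The values by replicate were 42.1, 95.7, 70.3, 90.1, 51.6 and 82.6 CPM. Melanoma held 4 reads, 2 each in replicates 1 and 6, and the other 4 libraries were at 0. Breast held 33 reads with at least 1 in every library, between 0.136 and 0.945 CPM. The lung libraries were thus far above both, by 1309 times (511 to 4805) against melanoma and 145 times (103 to 211) against breast. The highest breast library remained below the lowest lung library.

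Aqp5 (ENSMUSG00000044217.18) was read at 86.2 ± 22.7 CPM (SD, n = 6) in lung. The values by replicate were 107, 63.3, 113, 67.6, 66.7 and 100.3 CPM. Replicates 7, 9 and 13 were high and replicates 8, 10 and 11 low. Melanoma held 15 reads and breast 12, with 2 breast libraries at 0, and the levels there (0.203 ± 0.0973 and 0.195 ± 0.176 CPM) were near or below that of 3 counts. The ratio of lung reads was 423 (256 to 757) to melanoma and 484 (277 to 936) to breast.

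Qrfp (ENSMUSG00000043102.3) was read at 61.7 ± 23.9 CPM (SD, n = 6) in lung. By replicate it stood at 62.3, 58.3, 108, 43.4, 45.2 and 52.9 CPM, and replicate 9 lay well above the other 5. It was read at 0.243 ± 0.111 CPM in melanoma and 0.298 ± 0.108 CPM in breast, from 18 and 21 reads. Ratios of reads were 256 (162 to 432) and 200.4 (131 to 324). Other peptide genes of the hypothalamus, where Qrfp is normally made, overlapped between the models: the 10 summed to 155 to 221 CPM in lung, 137 to 214 CPM in melanoma and 109 to 239 CPM in breast.

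Dynap (ENSMUSG00000024512.5) had the highest level of the set, 283 ± 53.5 CPM (SD, n = 6) in lung. The values by replicate were 316, 212, 307, 236, 270.0 and 356 CPM. It was also clearly read in breast, where replicates 14 to 19 held 21.5, 29.2, 54.9, 42.8, 63.8 and 39.0 CPM. Every breast library was below every lung library, and the ratio of lung to breast reads was 7.03. Its counting interval of 6.76 to 7.32 leaves out the spread between brains. Melanoma held 2 reads, and the ratio to lung was 10338 with an interval of 2862 to 85373.

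Gprc5a (ENSMUSG00000046733.8) was the exception to the lung pattern. It was read at 31.7 ± 10.3 CPM (SD, n = 6) in lung and 50.8 ± 12.8 CPM in breast, and the ranges (17.8 to 48.4 and 39.7 to 67.5 CPM) overlapped. The ratio of lung to breast reads was 0.636. Its counting interval of 0.604 to 0.670 leaves out the spread between brains, whose ranges overlapped. Lung replicates 7 to 11 and 13 held 32.9, 35.1, 48.4, 17.8, 25.4 and 30.3 CPM. Melanoma was at 0.238 ± 0.166 CPM with 1 library at 0, and the ratio of lung to melanoma reads was 131 (82.5 to 221). In bulk tissue, fewer cells of a type and less RNA per cell cannot be told apart, here or for any gene below.

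**Figure D1:**
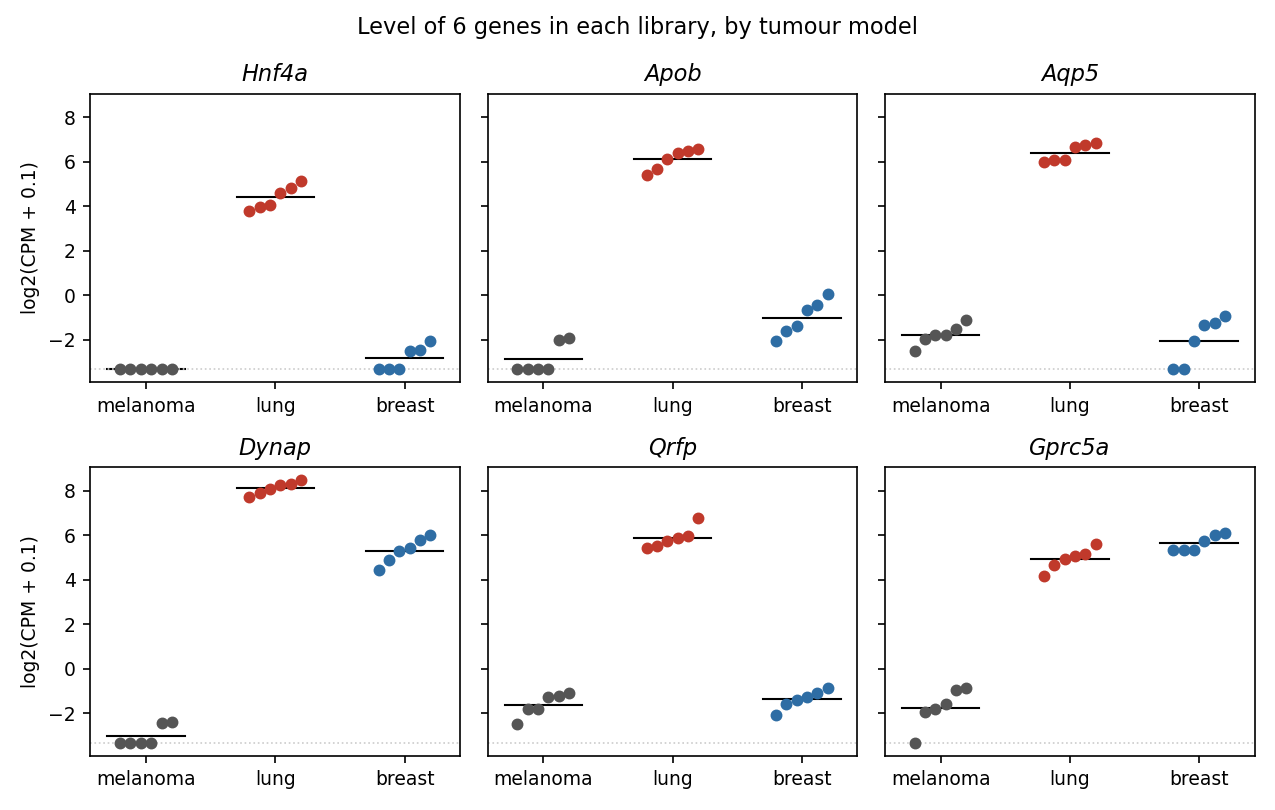
Level of each of the 6 genes in all 18 libraries, as log2(CPM + 0.1), with 1 point per library, a black line at the mean of each model and a dotted line at 0 CPM. Hnf4a, Apob, Aqp5 and Qrfp are high in the 6 lung libraries alone, Dynap is highest in lung and intermediate in breast, and Gprc5a is higher on average in breast than in lung.

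Set per kilobase of exon, which allows levels of different genes to be compared, Dynap led in lung at 231 ± 43.7 CPM per kb (SD, n = 6). Aqp5 followed at 33.2 ± 8.74 CPM per kb, then Qrfp at 21.1 ± 8.16 and Gprc5a at 15.2 ± 4.93. Apob (5.17 ± 1.55) and Hnf4a (4.60 ± 1.77) were lowest on this scale. The range of Dynap (173 to 291 CPM per kb) lay apart from all others. Neighbours further down overlapped: Aqp5 (24.4 to 43.4) with Qrfp (14.8 to 36.9), Qrfp with Gprc5a (8.55 to 23.2), and Apob (3.02 to 6.87) with Hnf4a (2.79 to 7.32), while Gprc5a and Apob did not. Division by the whole length may overcorrect long genes, since log2 CPM rose by 0.544 to 0.777, not by 1, per doubling of exon length in the lung libraries. By CPM alone Apob (13934 bases) lay between Aqp5 and Qrfp. In breast the order of the pair that was read there was the same, Dynap at 34.2 and Gprc5a at 24.4 CPM per kb.

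The 6 lung brains differed among themselves. The coefficient of variation ran from 18.9% for Dynap to 38.7% for Qrfp, and the highest library exceeded the lowest by 1.68 (Dynap) to 2.72 times (Gprc5a). Of 21 relations looked at (15 pairs of genes and each gene against the mean log2 CPM of 9 simple epithelium genes), none passed after adjustment, with 4 at an unadjusted p under 0.05 by Pearson's r. The closest was Gprc5a with the epithelium genes (r = 0.94, exact two-sided permutation p = 0.00278, adjusted p = 0.0583; rho = 0.94, p = 0.0167, adjusted p = 0.175; n = 6). Without the 2 libraries farthest from the median of Gprc5a its r was 0.83. Also under 0.05 before adjustment was Qrfp with Gprc5a (r = 0.90, exact permutation p = 0.0181, adjusted p = 0.190). So were Hnf4a (r = 0.86, p = 0.0319, adjusted p = 0.219) and Qrfp (r = 0.80, p = 0.0417, adjusted p = 0.219) with the epithelium genes. The smallest p that 720 pairings allow is 0.00139. Some relations hang on 2 libraries, replicates 8 and 13, the farthest from the median of Hnf4a and of Dynap. Without both, which leaves 4 libraries, r moved from 0.03 to 0.99 for Hnf4a with Aqp5. It moved from -0.40 to 0.90 for Hnf4a with Dynap and from 0.06 to 0.95 for Dynap with the epithelium genes. With only 1 library left out, these r ran from -0.23 to 0.60, -0.66 to 0.13 and -0.42 to 0.57. Others moved less, such as Hnf4a with the epithelium genes (0.84 to 0.94) and Qrfp with Gprc5a (0.89 to 0.97). With 6 libraries the relations among the genes are therefore not settled in either direction.

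Hnf4a and Apob, factor and target gene in liver, showed no detectable relation across these brains (r = 0.02, exact permutation p = 0.960, adjusted p = 0.974; rho = 0.09, p = 0.919, adjusted p = 0.965; n = 6). Without the 2 libraries farthest from the median of Hnf4a its r was -0.31. Hnf4a was highest in replicate 8 and lowest in replicate 13, whereas Apob was highest in 8 and lowest in 7. The exon length of Apob is 13934 bases, and its levels split by the library's slope of log2 CPM on exon length: replicates 8, 10 and 13, with Apob at 82.6 to 95.7 CPM, had slopes of 0.645 to 0.777, and replicates 7, 9 and 11, with Apob at 42.1 to 70.3 CPM, had slopes of 0.544 to 0.592. The part of this slope in the Apob values was not tested.

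**Figure D2:**
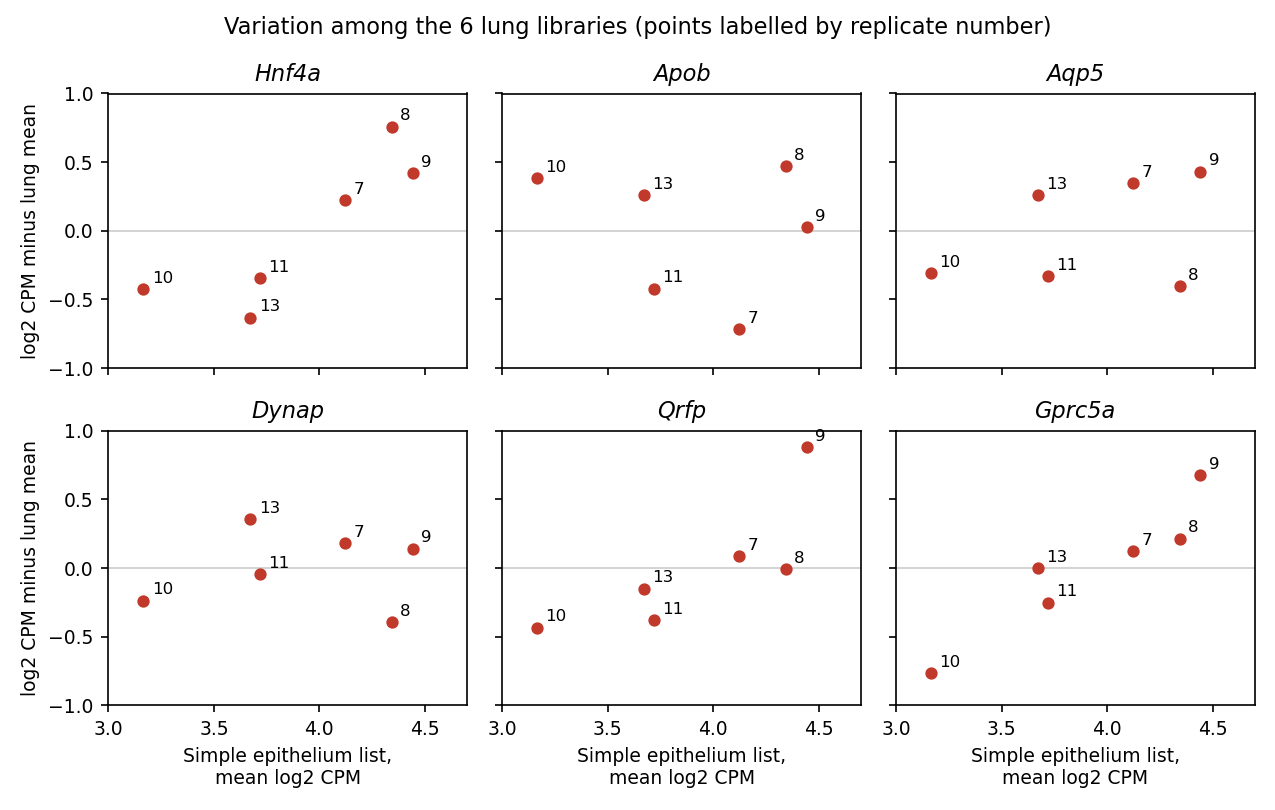
Each of the 6 genes in the 6 lung libraries, as log2 CPM minus its lung mean (y axis), against the mean log2 CPM of 9 simple epithelium genes (x axis), with 1 point per library labelled by replicate number. Gprc5a (r = 0.94, adjusted p = 0.0583 by exact permutation), Hnf4a (r = 0.86, adjusted p = 0.219) and Qrfp (r = 0.80, adjusted p = 0.219) rise along the x axis. None passed the adjustment. Replicate 9 stands high for Qrfp. Aqp5, Apob and Dynap have r of 0.39, -0.17 and 0.06, that of Dynap being 0.95 without replicates 8 and 13.

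The summed level of the simple epithelium markers was highest in lung, though not every marker was. Their 18 genes summed to 328 to 1363 CPM in lung, 172 to 287 CPM in breast and at most 12.9 CPM in melanoma. Krt19, a keratin of simple and ductal epithelia, was read at 91.4 ± 37.8 CPM (SD, n = 6) in lung, where melanoma stood at 0.171 ± 0.112 and breast at 0.120 ± 0.0945 CPM. Of 9 tested, 8 (88.9%) were higher in lung than in melanoma, where 14.7% of all genes were. Against breast 5 (55.6%) were higher and 2 (22.2%) lower, where 7.16% and 11.2% of all genes were. The lower ones were St14, a membrane protease (3.85 ± 1.65 CPM in lung and 96.2 ± 21.5 in breast), and Ovol1, a factor of epithelial differentiation (0.0138 ± 0.0338 and 3.15 ± 0.545 CPM), both chosen for mention after their values were seen. The choroid plexus is the epithelium of the brain itself. Its 10 markers summed to 649 to 1368 CPM in lung, 882 to 1821 CPM in melanoma and 776 to 1028 CPM in breast. These sums overlapped and were made up mostly of Ttr and Enpp2. Of the 10, 2 (20%) were lower in lung than in melanoma and 1 (10%) than in breast, and none was higher. Over all genes 8.51% and 11.2% were lower. Kcnj13 was at 3.20 ± 1.33 CPM in lung, 37.4 ± 33.4 in melanoma and 3.97 ± 1.22 in breast. Slc4a5 was at 2.32 ± 1.06, 4.41 ± 1.35 and 26.7 ± 3.56 CPM. The part of either cell type in the levels of the 6 genes was not tested.

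The comparison that the choice of genes did not use is breast against melanoma. There 3 of the 6 genes were higher in breast (edgeR's quasi-likelihood test, Benjamini-Hochberg adjusted over all genes), where 19.2% of all genes tested were called higher in breast, 9.76% lower and 28.9% in either direction. Of the 3, only Dynap and Gprc5a also passed the filter on the breast and melanoma libraries alone. Dynap was higher by 10.11 ± 0.45 (log2, SE; adjusted p = 1.27e-11) and Gprc5a by 7.64 ± 0.37 (adjusted p = 3.18e-11), each with 6 of 6 breast libraries above all melanoma libraries (exact two-sided permutation p = 0.00216, the smallest that splits of 6 against 6 allow). Apob, which passed the filter only through its lung reads, was higher by 2.93 ± 0.70 (adjusted p = 0.00313; exact permutation p = 0.00649), with 5 of 6 breast libraries above all melanoma libraries.

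The Apob difference rests on 33 against 4 reads, and 3 of the 6 breast libraries held at most 3 reads. Apob, Hnf4a, Aqp5 and Qrfp entered the fit through their lung reads. In a fit of the 12 breast and melanoma libraries alone they did not pass the filter and had no test, whereas Dynap and Gprc5a were called there too. Apob was not called by limma on log2 of the deposited CPM plus 1 (0.44, adjusted p = 0.0758), a scale that shrinks such low levels. Without melanoma 3, breast 18 and breast 19 the edgeR values were 9.69 for Dynap, 7.45 for Gprc5a and 2.88 for Apob, and all 3 calls were kept. The difference of breast minus melanoma was 2.42 ± 1.22 for Hnf4a (adjusted p = 0.160), 0.33 ± 0.45 for Qrfp (adjusted p = 0.605) and -0.17 ± 0.61 for Aqp5 (adjusted p = 0.858), all by edgeR. These 3 genes had at most 21 reads in either model, and a difference between breast and melanoma was not detectable at this depth.

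**Figure D3:**
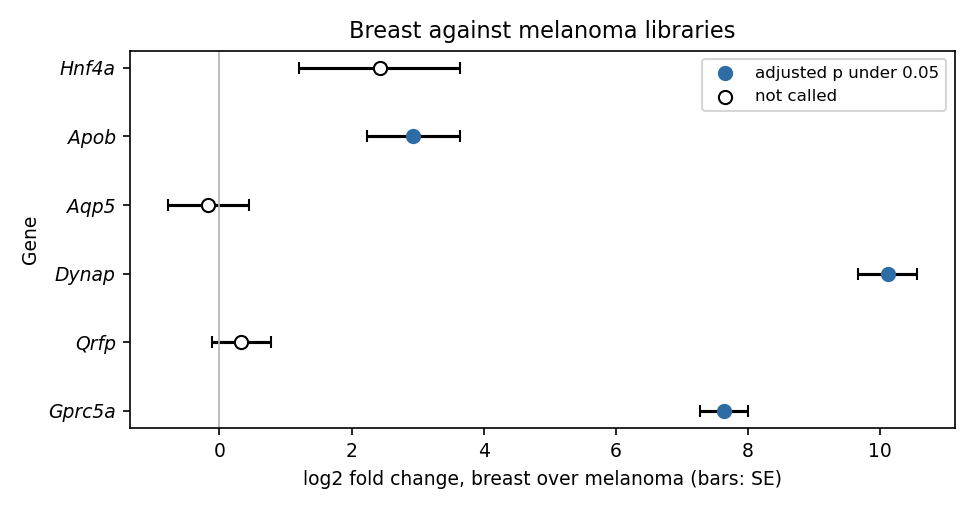
Log2 fold change of breast over melanoma for each of the 6 genes from edgeR's fit over 18 libraries, with bars of 1 SE. Filled points (Apob, Dynap, Gprc5a) passed an adjusted p of 0.05 and open points did not. Apob, Hnf4a, Aqp5 and Qrfp entered the fit through their lung reads only.

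Whether the lung libraries also held other genes of the gut and liver programme was asked with 5 lists of 107 genes that left out the 6 themselves. Of these, 51 were read enough to be tested, 56 were not, and 8 had no read. The lists were drawn up with earlier results of these data known. A listed gene could also pass the filter through its lung reads alone, as Cdx2 did with 183 lung reads and none elsewhere. For such a gene a call of higher in lung is nearly given. The part of this in the shares below was not tested. Against melanoma 36 of the 51 (70.6%) were higher in lung and 3 (5.88%) lower, where 14.7% and 8.51% of all genes were. Against breast 20 (39.2%) were higher and 4 (7.84%) lower, where 7.16% and 11.2% of all genes were. The median log2 difference was 1.25 against melanoma and 0.42 against breast, beside -0.02 and 0.02 over all genes tested. Tested genes with no read in the other model were 1 for melanoma and 2 for breast. They lay far above these medians also at their bound, so setting them to it could not move the medians. The lung libraries are shared by the comparisons with melanoma and with breast, which are therefore not independent. Breast also stood above melanoma for part of these genes: 20 of the 51 (39.2%) were higher in breast and 6 (11.8%) lower. Over all genes tested those shares were 19.2% and 9.76%. One of the 8 genes listed at 0 in all libraries was Sox2, which brain cells use, so a listing at 0 is not taken as absence. Microglia markers also moved between the models, with 5 of 5 called higher in lung than in melanoma and a summed level of 677 to 1104 CPM in lung, 173 to 314 CPM in melanoma and 580 to 1045 CPM in breast. Astrocyte markers summed to 3924 to 5737 CPM in lung, 2165 to 3350 CPM in melanoma and 3854 to 4806 CPM in breast. Of these 5 markers 2, Gfap and Aqp4, were called higher in lung than in melanoma, and none was called against breast. Most of the gap in the sum was Gfap, at 2010 ± 546 CPM (SD) in lung and 349 ± 59.1 CPM in melanoma. The part of these cells and of the simple epithelium markers in the list counts was not tested.

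Among the liver and gut transcription factors, 10 of 12 tested (83.3%) were higher in lung than in melanoma and 9 of 12 (75%) higher than in breast. Over all genes 14.7% and 7.16% were. None was lower, where 8.51% and 11.2% of all genes were. Foxa1, a pioneer factor of endoderm, was read at 22.5 ± 3.71 CPM (SD, n = 6) in lung, 1.07 ± 0.710 in melanoma and 2.84 ± 0.561 in breast, a log2 difference of 4.38 ± 0.31 (SE; edgeR adjusted p = 2.46e-09) and 2.97 ± 0.28 (adjusted p = 1.87e-07). Gata6, another endoderm factor, stood at 2.12 ± 0.371 CPM in lung, 0.110 ± 0.0992 in melanoma and 0.109 ± 0.107 in breast (4.15 ± 0.42, adjusted p = 3.67e-07, and 4.21 ± 0.44, adjusted p = 7.66e-07). For both genes every lung library was above every other library.

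Cdx2, the master factor of intestine, was chosen for mention after its values were seen: it held 183 reads over the 6 lung libraries (1.09 to 3.32 CPM) and none in the other models. Klf5, a factor of gut crypts and other epithelia, was at 17.6 ± 3.52 CPM (SD, n = 6) in lung, and melanoma (5.49 ± 1.18) and breast (7.14 ± 1.31) were lower.

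Of 14 lipoprotein genes tested, 7 (50%) were higher and 2 (14.3%) lower in lung than in melanoma, where 14.7% and 8.51% of all genes were. Against breast 1 was higher (7.14%, where 7.16% of all genes were) and 2 lower (14.3%, where 11.2% were). Mttp, the transfer protein that loads lipid onto apolipoprotein B, was read at 12.4 ± 0.914 CPM (SD, n = 6) in lung, 15.2 ± 1.83 in melanoma and 12.2 ± 1.38 in breast (log2 differences -0.29 ± 0.11, edgeR adjusted p = 0.0587, and 0.01 ± 0.11, adjusted p = 0.950). Apobec1, the enzyme that edits Apob RNA to the short intestinal form, was at 19.1 ± 5.33 CPM in lung, 6.83 ± 5.09 in melanoma and 31.1 ± 6.44 in breast, and was called against melanoma (1.47 ± 0.32, adjusted p = 0.00190) but not against breast (-0.71 ± 0.31, adjusted p = 0.134). Cideb, a lipid droplet protein of lipoprotein loading, was higher than in melanoma by 0.70 ± 0.21 (adjusted p = 0.0190) and than in breast by 0.87 ± 0.21 (adjusted p = 0.00646). Its call against melanoma was lost without melanoma 4 (0.61, adjusted p = 0.0594).

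Secreted liver proteins gave a different picture again. Of 8 tested, 6 (75%) were higher in lung than in melanoma, where 14.7% of all genes were. Against breast none was higher and 2 (25%), Afp and Rbp4, were lower, where 7.16% and 11.2% of all genes were. Afp, the fetal counterpart of serum albumin, was at 11.6 ± 4.44 CPM (SD, n = 6) in lung, 0.202 ± 0.172 in melanoma and 62.7 ± 30.5 in breast (5.75 ± 0.48, edgeR adjusted p = 3.19e-08, and -2.43 ± 0.33, adjusted p = 1.95e-05). Alb, the main product of hepatocytes, held 5 reads in lung, 8 in melanoma and 1 in breast, and was not tested.

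Intestinal genes were higher in lung than in melanoma in 8 of 10 tested (80%), with Lgr5 lower (10%). Over all genes 14.7% and 8.51% were. Against breast 5 of 10 (50%) were higher, where 7.16% of all genes were. Tspan8, a tetraspanin of gut epithelium, was at 69.2 ± 19.4 CPM (SD, n = 6) in lung, 0.689 ± 0.343 in melanoma and 0.958 ± 0.379 in breast (6.65 ± 0.30, edgeR adjusted p = 1.03e-11, and 6.22 ± 0.29, adjusted p = 2.34e-11). Cdh17, the liver-intestine cadherin, was at 12.1 ± 11.4 CPM in lung, 0.205 ± 0.0681 in melanoma and 1.09 ± 0.665 in breast (5.81 ± 0.66, adjusted p = 1.47e-06, and 3.47 ± 0.54, adjusted p = 9.51e-05). Lgals4, an intestinal galectin, was at 8.74 ± 11.4 CPM in lung, 0.978 ± 0.381 in melanoma and 0.892 ± 0.312 in breast (3.14 ± 0.60, adjusted p = 0.000504, and 3.27 ± 0.61, adjusted p = 0.000677).

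Replicate 8, which also had the highest Hnf4a and Apob, stood highest for 3 of the 5 intestinal genes named by the rule, with 33.6 CPM of Cdh17, 31.8 CPM of Lgals4 and 8.39 CPM of Vil1, the villin of brush borders. Tspan8 was higher in replicates 7, 9 and 13 (67.7 to 93.6 CPM) than in replicate 8 (64.1 CPM), and Vdr, the vitamin D receptor, was highest in replicate 7 (5.32 CPM, and 3.11 CPM in replicate 8). Without replicate 8 the log2 differences were 5.17 and 2.84 for Cdh17 and 2.07 and 2.20 for Lgals4, still called, while Vil1 lost its call against melanoma (0.69, edgeR adjusted p = 0.0678). Vil1 also lost it without melanoma 4 (1.01, adjusted p = 0.0698), and the value over all libraries was 1.19 ± 0.36 (adjusted p = 0.0202).

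Gastric genes were called in 5 of 7 tested (71.4%), all higher in lung, in each comparison. Over all genes 14.7% were higher in lung than in melanoma and 7.16% than in breast. Anxa10, an annexin of stomach lining, was at 13.5 ± 8.83 CPM (SD, n = 6) in lung, 0.136 ± 0.0846 in melanoma and 0.0357 ± 0.0590 in breast (6.52 ± 0.53, edgeR adjusted p = 1.82e-08, and 8.38 ± 0.65, adjusted p = 1.50e-08). Breast held 2 reads of it, and without breast 18 the latter difference was 9.01. Ctse, an aspartic protease of gastric surface cells, was at 14.5 ± 10.4 CPM in lung, 0.107 ± 0.0747 in melanoma and 1.18 ± 0.388 in breast (6.92 ± 0.56, adjusted p = 1.82e-08, and 3.57 ± 0.41, adjusted p = 3.14e-06). Vsig1, a junction protein of stomach, was at 4.62 ± 1.04 CPM in lung, 0.0797 ± 0.0701 in melanoma and 0.161 ± 0.124 in breast.

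**Figure D4:**
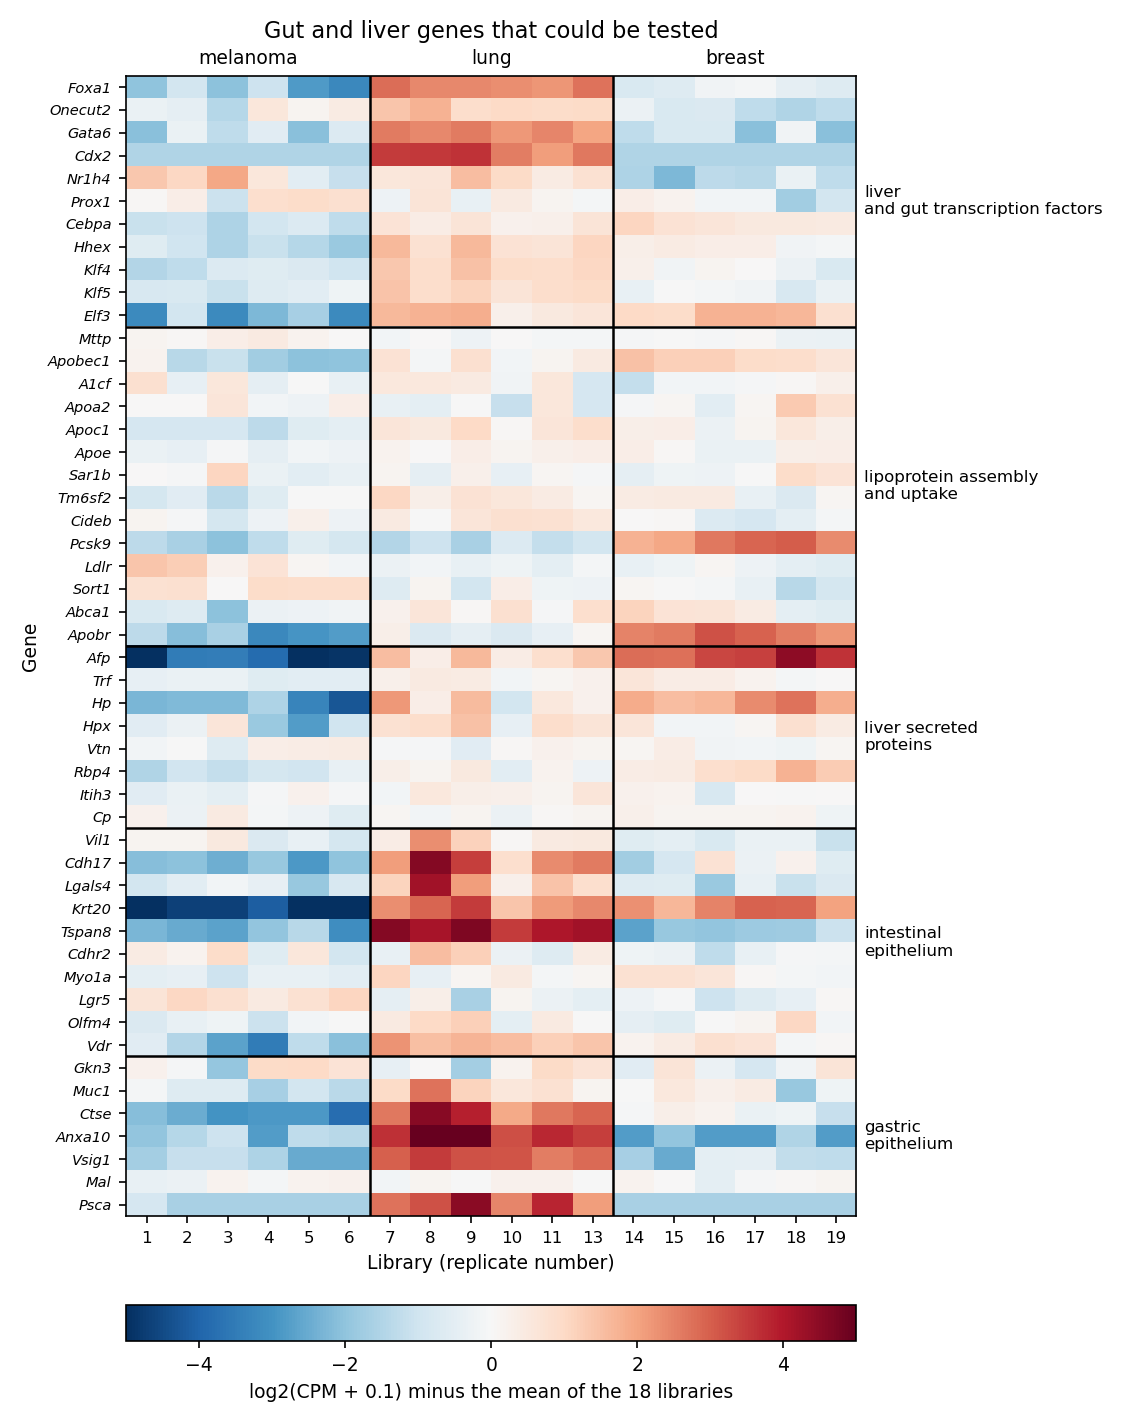
Gut and liver genes that could be tested (50 of the 51, as rows, grouped by list) in the 18 libraries (columns, replicate numbers below), as log2(CPM + 0.1) minus the mean of the 18 libraries, on a colour scale from -5 to 5. Foxa1, Gata6, Cdx2, Tspan8, Cdh17, Anxa10, Ctse and Vsig1 are red in the lung block, Prox1, Lgr5, Gkn3 and Mal are not, Mttp is pale throughout, and Afp is deepest red in breast.

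Of 8 genes of lung epithelium tested, 1 (Napsa) was higher in lung than in melanoma, 12.5% where 14.7% of all genes were, and none was called against breast. Nkx2-1, the lineage factor of lung, was at 2.41 ± 0.795 CPM (SD, n = 6) in lung, 2.75 ± 1.29 in melanoma and 2.04 ± 1.01 in breast (log2 differences -0.19 ± 0.38, edgeR adjusted p = 0.794, and 0.20 ± 0.39, adjusted p = 0.776). Sftpc, the surfactant gene of alveolar type 2 cells, was at 0.782 ± 0.354, 1.31 ± 0.369 and 0.895 ± 0.461 CPM in lung, melanoma and breast.

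Among the other aquaporins, 4 of 5 tested were higher in lung than in melanoma and 2 higher than in breast, where 14.7% and 7.16% of all genes were. Aqp3, the water and glycerol channel of epithelia, was at 10.7 ± 5.30 CPM (SD, n = 6) in lung, 0.0887 ± 0.111 in melanoma and 0.148 ± 0.132 in breast (6.67 ± 0.54, edgeR adjusted p = 1.96e-08, and 6.07 ± 0.52, adjusted p = 5.93e-08). Aqp1 was at 19.3 ± 6.27 CPM in lung, 4.22 ± 1.18 in melanoma and 4.52 ± 1.10 in breast (2.19 ± 0.23, adjusted p = 6.14e-07, and 2.09 ± 0.23, adjusted p = 1.84e-06). Aqp4, the astrocyte channel, was at 224 ± 50.9, 124 ± 42.1 and 222 ± 34.6 CPM in lung, melanoma and breast, and was called against melanoma (0.85 ± 0.21, adjusted p = 0.00533) but not against breast (0.02 ± 0.21).

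Around Gprc5a, the family members Gprc5b and Gprc5c were not called in either lung comparison (edgeR adjusted p = 0.303 to 0.948). In the list of this family and retinoid genes, 9 of 17 tested were higher and 1 lower in lung than in melanoma, and 5 were higher and 1 lower than in breast. Those higher made up 52.9% and 29.4%, where 14.7% and 7.16% of all genes were, and those lower 5.88% in each, where 8.51% and 11.2% were. Aldh1a3, which makes retinoic acid, was at 14.9 ± 4.95 CPM (SD, n = 6) in lung, 1.25 ± 0.496 in melanoma and 1.40 ± 0.286 in breast (3.58 ± 0.28, adjusted p = 1.07e-08, and 3.38 ± 0.28, adjusted p = 3.12e-08). Rdh10, which makes its retinal substrate, was at 41.6 ± 5.82, 11.9 ± 1.87 and 15.7 ± 1.29 CPM (1.80 ± 0.12, adjusted p = 1.98e-09, and 1.41 ± 0.12, adjusted p = 7.21e-08). Both were higher in lung than in breast, unlike Gprc5a.

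Around Qrfp, the receptor gene Qrfpr was at 4.32 ± 0.907 CPM (SD, n = 6) in lung, 2.93 ± 0.731 in melanoma and 2.30 ± 0.626 in breast (0.57 ± 0.20, edgeR adjusted p = 0.0520, and 0.93 ± 0.21, adjusted p = 0.00358). Of the 4 RFamide genes tested none was called against melanoma, where 23.2% of all genes were. Against breast Qrfpr was higher and Kiss1r lower, each 25% of those tested, where 7.16% and 11.2% of all genes were. Around Dynap, 1 of the 12 dynactin subunits was higher in lung than in melanoma (Capzb, 0.35 ± 0.10, adjusted p = 0.0146) and 1 lower than in breast (Capza1, -0.96 ± 0.20, adjusted p = 0.00192), each 8.33% of the list, where 14.7% and 11.2% of all genes were. Dctn1, the large dynactin subunit, was at 334 ± 52.3, 386 ± 90.4 and 274 ± 71.5 CPM in lung, melanoma and breast and was not called.

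Over the 18 libraries Hnf4a, Apob, Aqp5 and Qrfp had pairwise Pearson r of log2 CPM of 0.96 to 0.99, Dynap and Gprc5a had 0.93, and Gprc5a had 0.40 to 0.56 with the first 4. Dynap, with 0.69 to 0.80 against the first 4, lay between. These values follow from the model means and are a description of libraries that share their depth. Of 16194 genes ranked for likeness over the 18 libraries, those closest to the mean profile of the set were Ankrd1 (r = 0.99), Ptges (0.99), Pthlh (0.99), Klra1, Prrx2, Lamb3, F2r and Serpinb2 (0.98). Pthlh, the parathyroid hormone-like peptide, was at 105 ± 23.3 CPM (SD, n = 6) in lung, 1.89 ± 0.651 in melanoma and 7.04 ± 2.09 in breast.

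Closest to single genes of the set were Krt19 and Gm20467 for Hnf4a, Cdkn2a and Lrrc66 for Apob, 2310007B03Rik and Ifi202b for Aqp5, and Nkx2-3 and Gm15854 for Qrfp (r = 0.98 to 1.00). Nkx2-3, a homeobox factor of gut mesenchyme and vessels, was at 22.4 ± 7.01 CPM (SD, n = 6) in lung, 0.0267 ± 0.0414 in melanoma and 0.0505 ± 0.0614 in breast. Dynap lay closest to Ecm1 and Krt8 (both r = 0.99), the latter at 291 ± 136 CPM in lung, 0.851 ± 0.383 in melanoma and 100.2 ± 37.9 in breast. Gprc5a lay closest to Sprr1a (r = 0.99). Sprr1a, a gene of stressed squamous epithelium, was at 16.2 ± 8.64 CPM in lung and 19.6 ± 8.79 in breast.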

How the data were processed

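Poly(A)+ RNA of peritumoral brain tissue was sequenced from directional libraries in 18 mice, per the labels' protocols. The deposited count table gives raw counts for 55416 Ensembl genes, with no normalization by the authors. The deposited CPM table gives CPM for 16925 genes on an adjusted library size; whole reads were recovered from 100% of its values (tolerance 0.01). The submitters' processing notes name bcl2fastq and, as genome build, GRCm39. For the aligner, the counter, the annotation and whether counting used strand, nothing is given in the sources used here. Symbols, exon lengths and gene order came from GENCODE M21, and 52083 IDs (94.0%) had a symbol, holding 99.8% of reads. Dynap was not found under its symbol in the CPM table and was taken from the counts. Exon lengths entered values per kilobase and the library check on length.

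Counts were fitted with edgeR 4.0.16 in R 4.3.3 by the robust quasi-likelihood test, with TMM scaling, filterByExpr (17174 genes kept) and 1 coefficient per model over all 18 libraries. P-values were adjusted by Benjamini-Hochberg over all genes tested, and changes were called at an adjusted p under 0.05. Levels are CPM on TMM-scaled library sizes. Ratios of reads divide the summed reads of each model by its summed TMM-scaled library sizes. With 7366250 to 14533877 counts per library, 3 counts corresponded to 0.206 to 0.407 CPM, and intervals and floors cover counting error only. Nothing in the labels beyond the brain count states how libraries of a model were replicated, so p-values measure the spread between these brains. The fit was tested on simulated data.

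The 6 genes and the 19 gene lists were chosen with earlier results of these data known. Because the 6 genes were picked for being high in the lung model, their lung values are a description with no test; they were tested only between the breast and melanoma libraries and, across the 6 lung libraries, against each other. Named genes were all 6 and the first 2 genes of each list. Up to 3 more per list had the smallest larger p-value of the lung comparisons, among genes called in the same direction against both models. Listed genes outside this rule were chosen for mention after their values were seen. Some are marked so in place. Not marked there are Lgr5, Rbp4, Napsa, Kiss1r, Capzb, Capza1, Ttr, Enpp2, Sox2, Prox1, Gkn3 and Mal. Alternatives were other scalings, filters, prior counts and tests (DESeq2 1.42.0, limma 3.58.1 with voom or on log2 of the deposited CPM plus 1 or 0.1), 12-library fits, exact permutation, and leaving out libraries; a fit on the reads recovered from CPM was chosen after seeing the data. Some genes that the rule named are not reported here.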

Additional observations from a re-analysis of the deposited data

Results flagged for a closer look

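Groups of 6 libraries were looked at for a single library far from the rest in 35 cases. For normally distributed values chance alone marks about 1 in 20. That rate does not hold for skewed levels or few reads, and a gene read in only 1 library, such as Tff2, is always marked. Qrfp in lung replicate 9 stood at 108 CPM, with the other 5 lung libraries at 43.4 to 62.3 CPM. The other 4 cases were all in lung replicate 8. There Lgals4 stood at 31.8 CPM (others 1.99 to 7.38) and Vil1 at 8.39 CPM (1.66 to 3.66). Tff1, a trefoil peptide of stomach, stood at 2.64 CPM (0 to 0.474), and Tff2 at 0.0777 CPM, which is 1 read where the others had none.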

How the results depend on the processing

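No paired analysis was possible because the models share no library number. The counts of gut and liver genes higher in lung kept within 1.5 times under every alternative run, at 29 to 44 against melanoma (36 as reported) and 18 to 28 against breast (20). Those lower against melanoma were 5 and 5 by limma on deposited CPM plus 1 and plus 0.1 (3 as reported). Those lower against breast were 7 with no filter, 8 and 8 by these limma fits, and 4 to 7 with 1 library left out, reaching 7 without melanoma 1 and without lung 7 (4 as reported). Over all genes, those lower in lung than in melanoma rose from 1461 to 2368 without melanoma 3, breast 18 and breast 19. Those higher in lung than in breast rose from 1229 to 2317 without these 3, to 1851 with 12 libraries, and were 1031 to 1903 with 1 library left out, highest without melanoma 3. The causes were not tested.

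For Apob, breast against melanoma was not called by limma on deposited CPM plus 1 (0.44, adjusted p = 0.0758), nor with at least 1 CPM in 6 libraries (0.44, adjusted p = 0.0700), and was 2.60 to 3.49 with 1 library left out. For Aqp5 the difference, never called, changed sign without melanoma 1 (0.10, range -0.48 to 0.13 over libraries left out), without breast 16 (0.13) and without breast 17 (0.12). Calls of Dynap and Gprc5a held in all alternatives run. With 1 lung library left out, too few pairings remain for a relation within lung to pass the adjustment, so the 0 calls there show no stability. Vil1 also lost its call against melanoma with 12 libraries (1.19, adjusted p = 0.0596). Cldn5, an endothelial marker outside the lists above, lost its call against breast in 5 alternatives. Depth limits Hnf4a, Aqp5 and Qrfp outside lung, where libraries held few reads.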

Other observations

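The coding genes next to the 6 genes in GENCODE M21 order were looked at after the levels were known. Of 24 flanking genes, 20 could be tested, and 5 were called higher in lung than in melanoma and 5 higher than in breast by edgeR's quasi-likelihood test, beside 14.7% and 7.16% of all genes. R3hdml, next to Hnf4a, was read at 3.45 ± 0.796 CPM (SD, n = 6) in lung, 0.0155 ± 0.0379 in melanoma and 0.0590 ± 0.112 in breast (log2 differences 7.17 ± 0.53, SE, adjusted p = 5.88e-09, and 5.96 ± 0.48, adjusted p = 2.41e-08). Ccdc68, next to Dynap, was read at 5.53 ± 1.45 CPM in lung, 0.206 ± 0.121 in melanoma and 0.689 ± 0.208 in breast (4.68 ± 0.30, adjusted p = 8.06e-10, and 3.01 ± 0.26, adjusted p = 6.02e-08). None of the flanking genes of Apob, Aqp5 or Qrfp was called higher in lung. Of the 20 tested, 2 flanking genes were lower in lung than in melanoma and 3 lower than in breast, beside 8.51% and 11.2% of all genes. Among them were Atad2b beside Apob (-0.76 ± 0.15, adjusted p = 0.000710, and -0.55 ± 0.15, adjusted p = 0.0133) and Apold1 beside Gprc5a (-1.92 ± 0.38, adjusted p = 0.000674, and -1.50 ± 0.38, adjusted p = 0.00787). Hnf4aos, the antisense gene that overlaps Hnf4a, held 7 reads in all 18 libraries.

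Genes of the gut lists that were too low to test but were read mostly in lung, chosen after their values were seen, were Gata4 with 104 lung reads, 1 melanoma read and 24 breast reads, Foxa2 with 112, 12 and 16 reads, and Muc5ac, the gastric surface mucin, with 106, 0 and 1 reads.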
